A study of Rattus norvegicus with 23 samples.

Results

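The comparison described here set the left ventricle of spontaneously hypertensive rats at 20 months of age against that of the same strain at 16 months. Its members were the 4 arrays titled for SHR at 20 months and the 4 titled for SHR at 16 months, 8 of the 23 arrays of the series, with every probe set that is not a control. SHR is an inbred rat strain with inherited high blood pressure and no introduced allele or drug treatment is named in the labels. The series also holds 4 SHR arrays of 12 months and 11 arrays of WKY (Wistar-Kyoto), a related strain with normal blood pressure, at 12, 16 and 20 months. The 4 of these at 16 months and the 3 at 20 months served to test whether the step differed between strains. Total RNA of rat left ventricle was hybridized to Affymetrix rat genome arrays, and heart failure is one of the keywords given. Whether every array came from its own animal is not said in the labels. The p-values therefore reflect only how far these samples scatter, and some of that scatter may be technical. Sex, blood pressure and any sign of failure in single rats were not used here.

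In a ventricle under long-lasting pressure load, muscle cells enlarge while fibroblasts lay down collagen and other proteins of the extracellular matrix. Collagen chains are secreted, trimmed and crosslinked outside the cell, matricellular proteins such as periostin and osteopontin sit in that matrix and act on cells without being its main scaffold, and proteases turn the matrix over. The muscle cells themselves live chiefly on fatty acids burned in their mitochondria.

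Values are the probe set intensities that the authors deposited, on a linear scale on which the array medians ran from 11.7 to 13.3 over these 8 arrays. Log2 changes are 20 minus 16 months on log2(intensity + 32), which understates the change of dim genes, and errors of log2 changes are standard errors. A gene is said to have risen or fallen when limma, fitted to 7280 probe sets over all 23 arrays, gave a two-sided Benjamini-Hochberg adjusted p below 0.05. The fit gives each probe set a single spread shared by all 6 groups of strain and age. Arrays outside the comparison therefore also set the standard errors and p-values, which matters for genes that are very dim in those groups. Where a gene had several probe sets, the one brightest over all arrays stands for it unless another is named. Where 4 values of one age are listed, they are replicates 1 to 4 in that order.

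The 16-month arrays were not of one run, and this has to be known before the results. Per the instrument records, replicates 1 and 2 of 16 months were hybridized on day 2 of the series and replicates 3 and 4 on day 3, while all 4 arrays of 20 months were hybridized on day 4. No day held both ages, so day and age cannot be told apart. Principal component 1 of the 12 SHR arrays (22.8% of the variance) ordered them by age without overlap. It ran from -9.0 to -4.5 at 12 months, -3.9 to 3.7 at 16 months and 4.2 to 10.4 at 20 months. Principal component 2 (17.6% of the variance) placed the arrays of day 2 from 16-month rats at -9.14 and -9.15 and those of day 3 at 3.94 and 4.44. It did not follow the day among the other arrays. The 12-month arrays of day 2 lay at 3.07 and 0.01, and replicate 4 of 20 months, of day 4, lay at -8.11. The hybridization controls BioB, BioC, BioDn and CreX, bacterial and phage transcripts spiked into each hybridization, also differed between the pairs of 16-month arrays. All 9 probe sets of these controls were dimmer at 20 months than on the 16-month arrays of day 2 (median log2 difference -0.49) and all 9 were brighter than on those of day 3 (median 0.34), with a median of -0.08 against the 4 arrays together. The 6 called genes and the main lists are therefore also given against the day 2 pair and the day 3 pair of 16-month arrays alone. Ventricular muscle markers were present on every array: 7 of 8 were measured, and their lowest intensity was 1077.8.

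Between 16 and 20 months 6 of 7280 probe sets rose (0.0824%) and 0 fell by limma, while 334 (4.59%) had a higher mean and 296 (4.07%) a lower mean at an unadjusted p below 0.05, beside 364 in all that an unadjusted p below 0.05 gives when nothing differs. The 6 were Ltbp2, Postn, Ctsk, Hbb-b1, Myl4 and Spp1. Ltbp2, Postn, Ctsk and Spp1 belong to the extracellular matrix or its turnover, Hbb-b1 is a red blood cell gene, and Myl4 is a myosin light chain gene of the atrium and of the fetal ventricle. In 139 probe sets (1.91%) all 4 arrays of 20 months lay above all 4 of 16 months, and in 106 (1.46%) all lay below. The count of calls moved with single arrays. Without replicate 2 of 16 months 13 probe sets were called (8 higher, 5 lower), without replicate 3 of 16 months 12 (10 higher, 2 lower), and without replicate 4 of 16 months 3. Against the day 2 pair alone 33 probe sets were higher (0.453%) and 27 lower (0.371%), against the day 3 pair 4 were higher (0.0549%) and 7 lower (0.0962%), and only Ltbp2 and Ctsk were called against both pairs. Fitted on the 8 arrays alone or on the 12 SHR arrays alone, limma called 0 probe sets, with 445 and 520 at an unadjusted p below 0.05. The calls of Ltbp2, Postn and Ctsk held when any single one of the 8 arrays was left out.

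**Figure D1:**
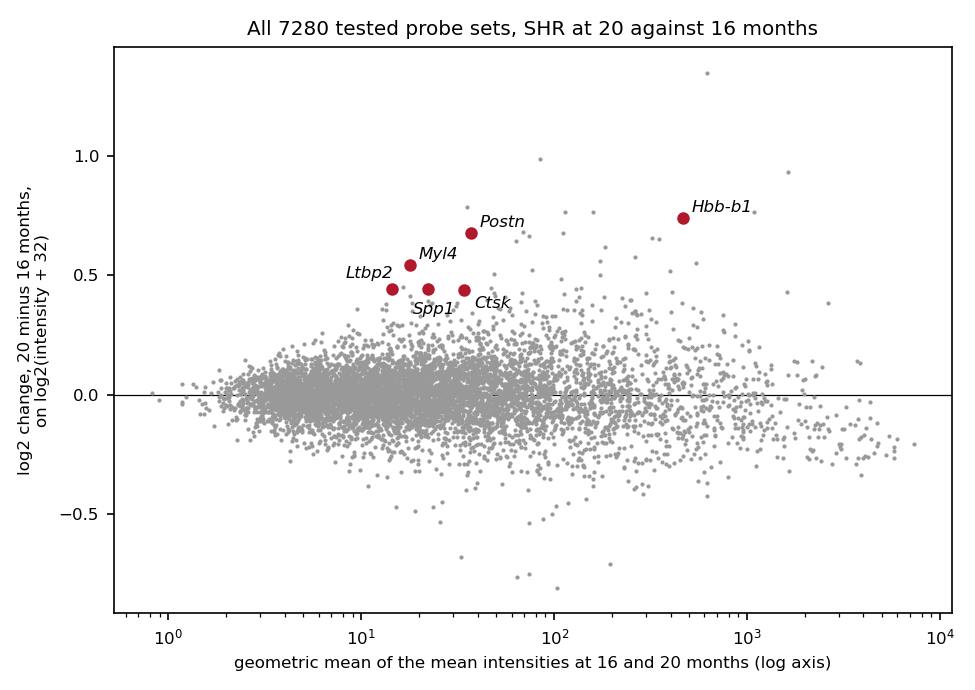
Change between 16 and 20 months in SHR (y axis, log2 on log2(intensity + 32)) against level (x axis, geometric mean of the mean intensities at both ages, log axis) for all 7280 tested probe sets, with the 6 called ones in red and named. All 6 lie above 0, and 5 of them lie at the dim end, with mean intensities at 20 months from 23.25 to 57.2.

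The 250 bases upstream of the annotated starts of 5 of the called genes are shown because these genes rose in the same step. The sequences come from the RefSeq promoter table (build GRCr8), are written 5′ to 3′ on the gene's own strand, and were searched on both strands for the TATA box (TATAAA), the E box (CANNTG), the AP-1 motif (TGANTCA), the Smad motif (CAGACA) and the CCAAT box, spelled as its name. Capitals mark the matches, so a match on the opposite strand appears as its reverse complement. The windows are chr6:110257299-110257548 (minus strand) for Ltbp2, chr2:140677811-140678060 (plus) for Postn, chr2:185747298-185747547 (plus) for Ctsk, chr1:167643521-167643770 (minus) for Hbb-b1 and chr10:89975900-89976149 (plus) for Myl4.
Ltbp2: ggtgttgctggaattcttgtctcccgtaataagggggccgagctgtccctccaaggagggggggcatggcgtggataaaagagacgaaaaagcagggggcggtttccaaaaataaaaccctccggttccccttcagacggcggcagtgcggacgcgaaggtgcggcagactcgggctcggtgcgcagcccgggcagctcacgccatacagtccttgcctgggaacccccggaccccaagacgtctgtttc
Postn: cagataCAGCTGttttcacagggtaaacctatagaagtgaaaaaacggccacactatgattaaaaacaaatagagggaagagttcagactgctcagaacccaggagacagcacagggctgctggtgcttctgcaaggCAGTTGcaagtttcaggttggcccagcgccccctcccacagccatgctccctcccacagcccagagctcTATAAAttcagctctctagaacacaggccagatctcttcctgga
Ctsk: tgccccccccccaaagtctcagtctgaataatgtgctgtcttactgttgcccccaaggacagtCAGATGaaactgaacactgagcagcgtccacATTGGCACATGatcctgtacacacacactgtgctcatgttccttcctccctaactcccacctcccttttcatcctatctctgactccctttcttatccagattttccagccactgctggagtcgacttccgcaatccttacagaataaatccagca
Hbb-b1: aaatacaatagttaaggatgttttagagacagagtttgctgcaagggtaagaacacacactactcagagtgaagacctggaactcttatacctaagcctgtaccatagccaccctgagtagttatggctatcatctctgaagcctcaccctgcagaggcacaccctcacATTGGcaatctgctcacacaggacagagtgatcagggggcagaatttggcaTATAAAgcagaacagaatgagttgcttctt
Myl4: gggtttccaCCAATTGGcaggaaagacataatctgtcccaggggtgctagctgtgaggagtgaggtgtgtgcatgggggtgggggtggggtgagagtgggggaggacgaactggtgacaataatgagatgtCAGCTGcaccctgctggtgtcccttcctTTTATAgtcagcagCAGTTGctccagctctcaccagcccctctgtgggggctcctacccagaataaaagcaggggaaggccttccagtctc
The TATA box was found in the windows of Postn (bases -44 to -39), Hbb-b1 (-30 to -25) and, on the opposite strand, Myl4 (-91 to -86), against 12.9% of all 33469 promoters in the table. The E box was found in Postn, Ctsk and Myl4 and is common, at 65.5% of all promoters. The CCAAT box was found in Ctsk, Hbb-b1 and Myl4 (34.0% of all), and in Myl4 its 2 matches overlap each other and an E box. The AP-1 motif (6.34% of all) and the Smad motif (17.2% of all) had 0 matches in these 5 windows, and the Ltbp2 window held 0 matches of any of the 5 motifs. A match is a description of letters and not of a bound factor, and a missing match says only that these letters are not in the window.

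Ltbp2 encodes a latent TGF-beta binding protein that lies along elastic fibres. Its intensities at 16 months were 1.8, 8.2, 14.6 and 10.9, and at 20 months 24.7, 20.1, 23.7 and 24.5. The groups did not overlap, replicate 1 of 16 months stood lowest, and all 4 arrays of 20 months lay close together. The log2 change was 0.44 ± 0.06 (limma adjusted p = 0.0014), with 0.58 against the day 2 pair and 0.30 against the day 3 pair (limma adjusted p = 5.85e-06 and 0.00515). The 16-month intensities straddle the array medians, and the mean at 12 months was 1.52 ± 0.51 (SD, n = 4). WKY was as dim, with 1.6 ± 0.65 (SD, n = 4) at 16 months, while SHR at 16 months had 8.88 ± 5.4 (SD, n = 4). The shared spread thus rests largely on very dim arrays that scatter little, and so do the small standard error and p-values. The call was lost in fits on the 8 arrays alone or the 12 SHR arrays alone. A second Ltbp2 probe set read 2.5 to 9.2 on the 8 arrays and did not pass (0.07 ± 0.06), so the rise rests on 1 of 2 probe sets.

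Postn encodes periostin, a matricellular protein of activated fibroblasts. It read 11.5, 22.3, 37.2 and 25.5 at 16 months and 67.4, 40, 58.7 and 62.7 at 20 months. Every 20-month array was above every 16-month array, with the highest of 16 months, 37.2, just under the lowest of 20 months, 40. The log2 change was 0.68 ± 0.11 (limma adjusted p = 0.00823). It was 0.86 against the day 2 pair and 0.49 against the day 3 pair, where the call was lost (limma adjusted p = 0.143).

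Ctsk encodes cathepsin K, a protease that cuts collagen. Its intensities were 21.2, 29.1, 25.4 and 25.8 at 16 months and 56.8, 40.2, 39.9 and 47.2 at 20 months, without overlap. The log2 change was 0.44 ± 0.07 (limma adjusted p = 0.00823), and the values against the day 2 and day 3 pairs were nearly alike, 0.45 and 0.43 (limma adjusted p = 0.0185 and 0.0408). In WKY the same probe set read 14.8 ± 2.46 (SD, n = 4) at 16 months and 13.7 ± 3.31 (SD, n = 3) at 20 months.

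Spp1 encodes osteopontin, a secreted phosphoprotein made by macrophages, fibroblasts and stressed muscle cells. It read 9.9, 11.5, 22 and 17.6 at 16 months and 27.5, 33, 30.3 and 37.2 at 20 months. Both ages were dim and did not overlap, and the day 2 pair was the dimmer pair of 16 months. The log2 change was 0.44 ± 0.09 (limma adjusted p = 0.0335), with 0.58 against the day 2 pair and 0.30 against the day 3 pair, where it did not pass (limma adjusted p = 0.47). The call was easily lost: leaving out any one of replicates 1, 2 and 4 of 16 months or 2, 3 and 4 of 20 months gave an adjusted p between 0.0581 and 0.202 in limma.

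**Figure D2:**
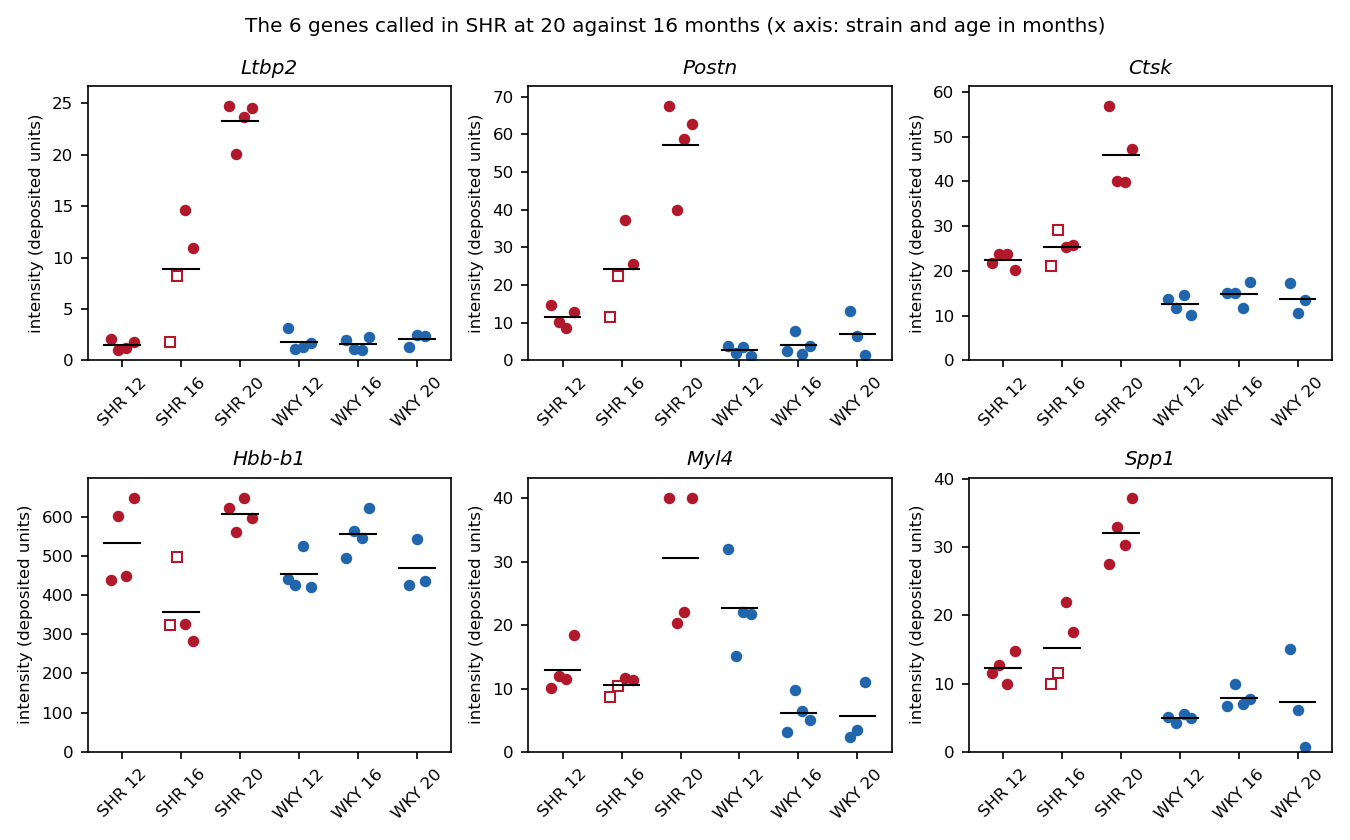
Intensity (y axis, deposited units, linear from 0) of the 6 called genes on every array, by strain and age in months (x axis). Points are arrays, lines are group means, SHR is red and WKY blue, and open squares are the 16-month SHR arrays of day 2. In SHR the 20-month points lie above the 16-month points in every panel, and for Hbb-b1 and Myl4 the lowest SHR mean is that of 16 months.

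The same genes can be followed from 12 months. The step from 12 to 16 months, which shares the 16-month arrays with the later step, had a log2 change of 0.28 ± 0.06 for Ltbp2 (limma adjusted p = 0.0453) and 0.35 ± 0.11 for Postn (0.173), so both had higher means at each age in turn. For Ctsk, Spp1 and Myl4 the earlier step was 0.08 ± 0.07, 0.09 ± 0.09 and -0.08 ± 0.10, and none of these passed. The late minus early difference itself was called for 0 of 7280 probe sets by limma, with 601 (8.26%) at an unadjusted p below 0.05, of which 3.19% of all probe sets were positive and 5.07% negative. For these 6 genes it ran from 0.17 for Ltbp2 to 1.29 for Hbb-b1, with limma adjusted p from 0.107 to 0.733. In WKY the change from 16 to 20 months was between -0.24 and 0.11 for the 6 genes. The SHR minus WKY difference of the step ran from 0.42 to 0.98 for them (limma adjusted p from 0.166 to 0.468), and over all probe sets it was called for 0, with 546 (7.5%) at an unadjusted p below 0.05, 4.0% of all probe sets positive and 3.5% negative. WKY arrays were hybridized on days 5 and 6, with 16 months on day 5 and 20 months on day 6, so neither strain nor age can be told apart from the day there.

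Hbb-b1 encodes a beta chain of adult haemoglobin and marks red blood cells in tissue. It read 324.4, 496.1, 326.3 and 282.2 at 16 months and 622, 561.6, 646.4 and 595.5 at 20 months. The groups did not overlap, but here the 16-month mean was the lowest of the 6 groups of strain and age. It was 357 ± 94.8 (SD, n = 4) against 534 ± 107 at 12 months and 606 ± 36.4 at 20 months (SD, n = 4 each). WKY read 453 ± 48.7 and 556 ± 53.0 (SD, n = 4 each) at 12 and 16 months and 469 ± 65.4 (SD, n = 3) at 20 months. Replicate 2 of 16 months, at 496.1, lay within the SHR range of 12 months, 437.0 to 647.8. The log2 change was 0.74 ± 0.14 (limma adjusted p = 0.0287), with 0.56 against the day 2 pair, where it did not pass (0.0951), and 0.93 against the day 3 pair. The call was lost without replicate 1, 3 or 4 of 16 months (limma adjusted p = 0.142, 0.0512 and 0.104) and without replicate 1, 3 or 4 of 20 months (0.0638, 0.114 and 0.0594). A second globin probe set, Hbb, read 736.1, 1206.1, 706.6 and 660.2 and then 1108.1, 1373.6, 1666.6 and 1465.8, with overlap (0.77 ± 0.16, limma adjusted p = 0.0558). Both probe sets carry the suffix that the manufacturer gives to sets shared by a gene family, so the globin genes cannot be told apart by them. The other measured red cell genes, Alas2 (haem synthesis) and Slc4a1 (band 3), differed by -0.03 ± 0.14 and -0.06 ± 0.09. The 4 red cell markers summed to 1061.0 to 1877.5 per array at 16 months and 1868.1 to 2459.9 at 20 months. Most of that sum came from Hbb and Hbb-b1, so it largely restates their values. In bulk tissue a different number of cells of a type and a different amount of RNA per cell cannot be told apart, and the part of blood left in the tissue in these values was not tested.

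Myl4 read 8.6, 10.4, 11.7 and 11.3 at 16 months and 40.1, 20.3, 22 and 40 at 20 months, a log2 change of 0.54 ± 0.10 (limma adjusted p = 0.0304). The 20-month arrays fall into replicates 1 and 4 near 40 and replicates 2 and 3 near 21, all above the 16-month arrays. The WKY arrays of 12 months read 32, 15.1, 22 and 21.7, so the 20-month SHR range was also reached there. Myl7, the other atrial myosin light chain gene, read 41, 39.8, 46.3 and 39.3 and then 182.6, 45.3, 36.9 and 121.6, so that replicates 1 and 4 of 20 months again stood high while replicates 2 and 3 lay among the 16-month values (0.65 ± 0.33, limma adjusted p = 0.611). Leaving out replicate 1 or replicate 4 of 20 months, or replicate 1 or 4 of 16 months, ended the Myl4 call (limma adjusted p from 0.0587 to 0.151), as did the day 3 pair as reference (0.226). A second Myl4 probe set had 0.36 ± 0.12 and did not pass. Of the 9 measured atrial markers Myl4 was called, and the median log2 change of the list was 0.03 beside 0.00 for all 4172 genes. The summed level of the list ran from 5091.6 to 7774.3 at 16 months and from 5100.2 to 6948.6 at 20 months. Nppa, the atrial natriuretic peptide gene and a marker of both atrium and wall stress, made up most of that sum. Its mean at 16 months was 3693.6, beside 10.5 for Myl4 and 41.6 for Myl7, so the sum says little about those genes. Nppa differed by 0.13 ± 0.18. Whether a share of atrial tissue differed between samples was not tested.

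Most matrix lists had positive medians beyond the single calls. For the lists below, each of 4172 genes is represented by 1 probe set. Over all of them 6 rose (0.144%), 200 had a higher mean at an unadjusted p below 0.05 (4.79%), 170 a lower one (4.07%), 8.87% in both directions, and the median log2 change was 0.00 to 2 decimals. The 90 genes whose 4 arrays of 20 months all lay above the 4 of 16 months were 2.16% of them, and the 58 with the opposite order were 1.39%.

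Of 9 measured collagen genes 0 were called, 5 had a higher mean at an unadjusted p below 0.05 (Col1a2, Col5a2, Col3a1, Col1a1 and Col5a1) and 0 a lower one, and the list median was 0.29. Col1a1 and Col1a2 encode the chains of type I collagen, the main fibre of scar. Col1a2 read 83.8, 160.1, 182.4 and 148.7 at 16 months and 268.5, 205.5, 266.6 and 193.3 at 20 months (0.62 ± 0.15, limma adjusted p = 0.171). Col1a1 read 184.2, 281.1, 361.6 and 271.8 and then 567, 383.4, 460.2 and 372.8 (0.65 ± 0.22, limma adjusted p = 0.311). Neither pair of groups overlapped, and in both genes replicate 1 of 16 months was far the lowest. Col3a1, the finer fibril collagen laid down with type I, read 158.8, 295.8, 313.8 and 240.9 and then 426.8, 376.1, 459.3 and 365.5 (0.66 ± 0.17, limma adjusted p = 0.204). Col5a2 and Col5a1, minor chains that start fibrils, had 0.45 ± 0.11 and 0.29 ± 0.10. The other 3 Col1a1 probe sets gave 0.21 to 0.36 with overlap, and a second Col3a1 probe set gave 0.50 ± 0.15, also with overlap.

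One array carried much of the distance between the ages in this list. Expressed as the median deviation of the collagen genes from their mean over all 23 arrays, replicate 1 of 16 months stood at -0.17 on the log2 scale, the other 16-month arrays at 0.23 to 0.35, and the 20-month arrays at 0.41 to 0.51. Without that array the list median was 0.19 in place of 0.29. Against the day 2 pair it was 0.43 and against the day 3 pair 0.21. The same median was 0.24 in the step from 12 to 16 months and 0.00 in WKY between 16 and 20 months.

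Among 12 matricellular and adhesive glycoprotein genes 2 were called (Postn and Spp1), 5 had a higher mean at an unadjusted p below 0.05 and 1 a lower one, with a median of 0.14. Thbs4, thrombospondin-4, missed the threshold narrowly. It read 59.3, 142.6, 162.3 and 107.9 at 16 months and 193.5, 191.9, 232.4 and 239 at 20 months, without overlap (0.77 ± 0.16, limma adjusted p = 0.0529). It passed without replicate 2 or 3 of 16 months (0.0206 and 0.0103) and against the day 2 pair (0.00798), and not against the day 3 pair (0.195), without replicate 1 or 4 of 16 months (0.197 and 0.104) or without any one array of 20 months (0.0566 to 0.217). Its earlier step was 1.04 ± 0.16 (0.00459). Fn1, fibronectin, read 65.5, 93.8, 103.1 and 85.8 and then 150.7, 119, 146.3 and 120.3 (0.48 ± 0.10, limma adjusted p = 0.0706), while 2 dimmer Fn1 probe sets gave -0.07 and 0.25. Mgp, an inhibitor of matrix calcification, differed by 0.43 ± 0.15, and Vtn, vitronectin, by -0.45 ± 0.13, from 56.2, 35.8, 23.5 and 32.1 to 32.3, 13.4, 19.6 and 8.7. The list median was 0.18 against the day 2 pair and 0.20 against the day 3 pair, 0.06 without replicate 1 of 20 months and 0.21 without replicate 2 of 16 months.

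Collagen processing and crosslinking had 0 of 9 genes called, 3 with a higher mean at an unadjusted p below 0.05 and 0 with a lower one (median 0.13). That median was 0.23 against the day 2 pair and 0.07 against the day 3 pair, and with 1 array left out it ran from 0.09 (without replicate 1 of 20 months) to 0.19 (without replicate 3 of 16 months). Plod2, the lysyl hydroxylase that prepares collagen for durable crosslinks, read 32.3, 32.6, 43.1 and 36.7 and then 51.6, 49.9, 49 and 49.2, so the 20-month arrays were nearly equal and lay above all 16-month arrays (0.27 ± 0.07, limma adjusted p = 0.171). Lox, lysyl oxidase, had 0.23 ± 0.09 with its other 3 probe sets between -0.05 and 0.10, and Pcolce, an enhancer of procollagen trimming, 0.30 ± 0.12. Loxl1, a second crosslinking oxidase, had 0.29 ± 0.15 in this step (0.04 against the day 3 pair) beside 0.76 ± 0.15 in the earlier one (limma adjusted p = 0.0172). Bgn, the proteoglycan biglycan, likewise had 0.15 ± 0.15 beside 0.81 ± 0.15 (0.0112), though the difference between the steps was not called for either gene. Of 24 genes of elastic fibre, basement membrane and proteoglycans 1 was called (Ltbp2), 4 had a higher mean at an unadjusted p below 0.05 (Ltbp2, Efemp1, Vcan and Lum) and the median was 0.06 (0.03 against the day 2 pair, 0.08 against the day 3 pair, 0.02 without replicate 3 of 20 months and 0.09 without replicate 4 of 16 months).

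Proteases that cut the matrix and the inhibitors that restrain them formed a list of 28 genes. Of these 18 had a positive log2 change, 1 was called (Ctsk), 10 had a higher mean at an unadjusted p below 0.05 and 1 a lower one, with a median of 0.08 (0.07 against either pair of 16-month arrays). Mmp2, a gelatinase, read 65.6, 73.8, 65.7 and 59.4 and then 106, 74, 101.2 and 78.1 (0.30 ± 0.09, limma adjusted p = 0.236), and a dim second probe set gave -0.01. Timp1, which inhibits such enzymes, had 0.36 ± 0.11, Serpine2 0.40 ± 0.12 and the cathepsin gene Ctss 0.38 ± 0.13, all with overlap. Among 40 profibrotic ligands and receptors 0 were called, 3 had a higher mean at an unadjusted p below 0.05 (Tgfb1 at 0.31 ± 0.13, Edn1 at 0.16 ± 0.06 and Igfbp6 at 0.19 ± 0.09) and 1 a lower one, and the median was 0.03. That one was Tnf, which read 7.4, 13.9, 5.6 and 3.7 at 16 months and 1.6 to 3.1 at 20 months. Of those intensities all but the 13.9 lie below the medians of their own arrays, and the earlier step had the opposite sign (0.20 ± 0.05).

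**Figure D3:**
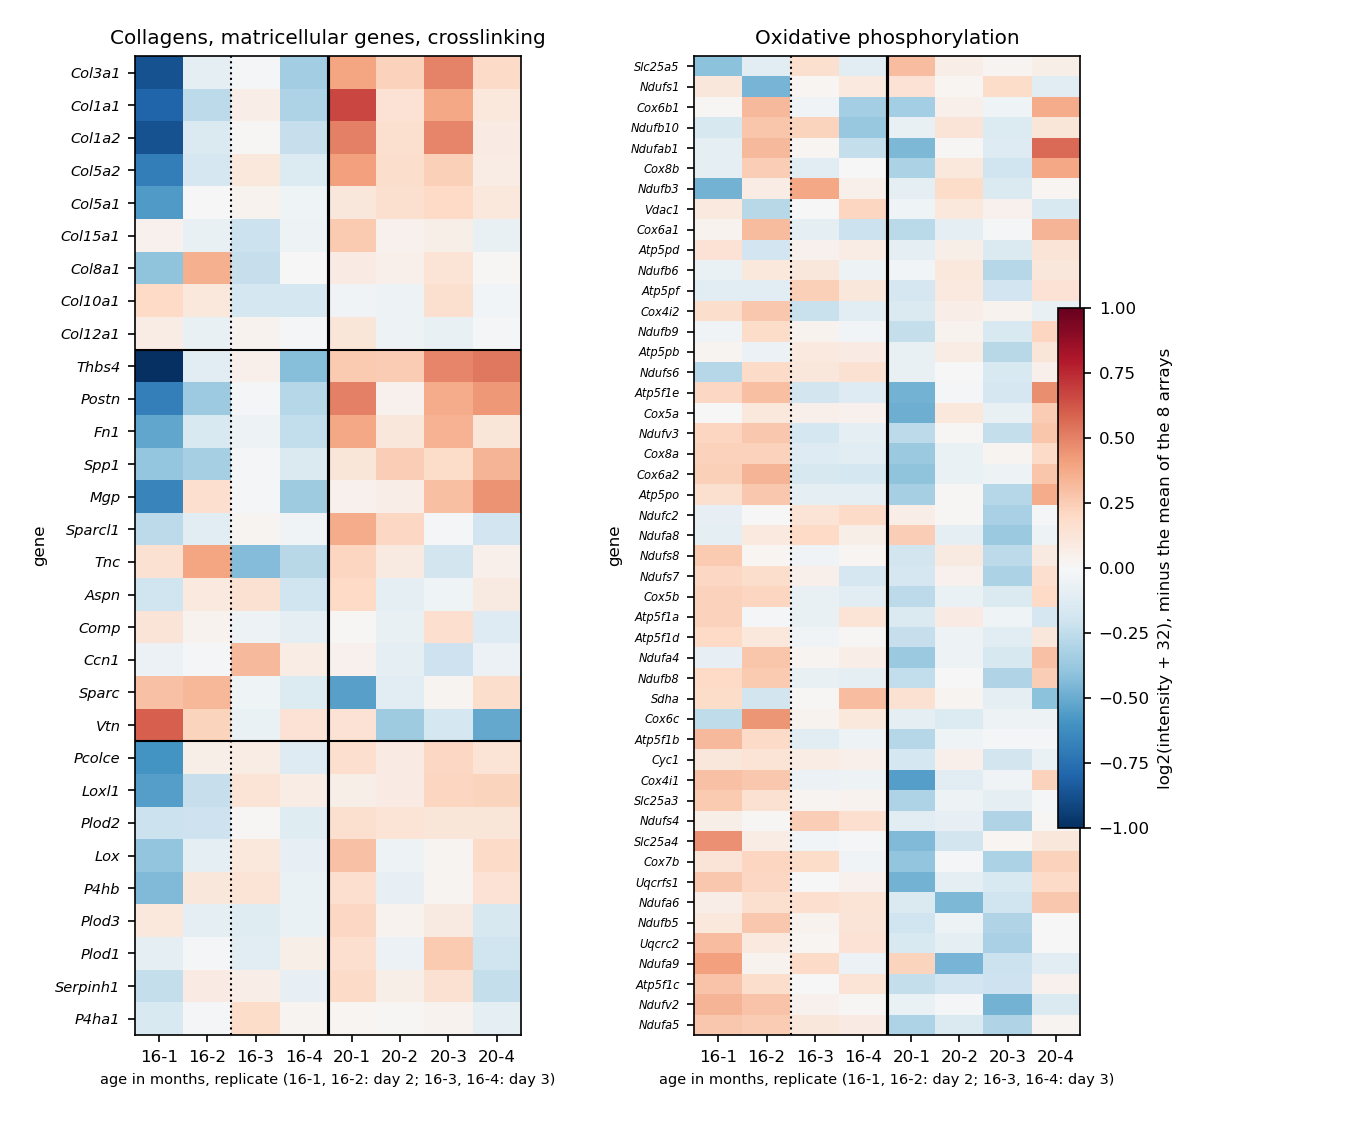
Each row is a gene and each column one of the 8 arrays (age in months and replicate), coloured by log2(intensity + 32) minus the gene's mean over the 8 arrays. On the left, from top to bottom, are the collagens, the matricellular and adhesive glycoproteins and the crosslinking genes, and on the right the genes of oxidative phosphorylation. The collagen rows at the top of the left panel are bluest in replicate 1 of 16 months, and on the right replicates 1 and 3 of 20 months are blue in most rows while replicate 4 of 20 months is not.

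Fibroblast markers had the largest median but one of the 31 lists. Of 11 fibroblast markers, some of which are the same collagen genes, 0 were called and 7 had a higher mean at an unadjusted p below 0.05 (median 0.35). That median was 0.23 without replicate 1 of 16 months, 0.38 against the day 2 pair and 0.18 against the day 3 pair. Thy1, a fibroblast surface protein, read 21.9, 25.3, 23 and 24.7 and then 35.8, 36.2, 46.3 and 42.8 (0.37 ± 0.09, limma adjusted p = 0.171), with tight groups and the same value against either pair of 16-month arrays (0.38 and 0.37). Vim, the intermediate filament of mesenchymal cells, had 0.43 ± 0.14. The members of the list above that p were Pdgfra (0.03 ± 0.09), Ddr2 (0.10 ± 0.08), Dcn (-0.01 ± 0.15) and Tcf21 (0.01 ± 0.09). The higher means were thus not shared by all fibroblast markers. Of 12 myofibroblast and smooth muscle, 9 endothelial, 10 adipocyte and 13 lymphocyte and mast cell markers 0 were called by limma and 0 had an unadjusted p below 0.05, with medians of 0.08, 0.01, 0.01 and -0.02. The endothelial, adipocyte and lymphocyte medians were below 0 against the day 2 pair and above 0 against the day 3 pair. Of 14 nerve and Schwann cell markers 0 were called, 1 had a higher mean at an unadjusted p below 0.05 and 0 a lower one. Their summed levels overlapped between the ages in all 5 lists. Such sums rest largely on the brightest members and say little about the others. In the smooth muscle list the brightest was Des (mean 1566.0 at 16 months), which is also in the sarcomere list. In the adipocyte list it was Lpl (988.6), which is also in the fatty acid list.

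The 13 macrophage markers went both ways. None was called, 3 had a higher mean at an unadjusted p below 0.05, among them Lgals3 (galectin-3, 0.28 ± 0.11) and Lyz2 (lysozyme, 0.52 ± 0.23), and 2 a lower one, Csf1r (-0.15 ± 0.06) and Cd74 (-0.29 ± 0.12). Lyz2 at 20 months was 361, 405.1, 396 and 752.7, so replicate 4 stood far above the others. Csf1r, the receptor that macrophages need to survive, read 2.6 to 15.2 on the 8 arrays. For Cd74, the invariant chain of antigen presentation, 2 of its 4 probe sets were lower and 2 higher at 20 months.

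Inflammation, complement and antigen presentation took in 55 genes, of which 0 were called, 43 had a positive log2 change, 7 a higher mean at an unadjusted p below 0.05 and 2 a lower one (median 0.06, with 0.08 against either pair of 16-month arrays). In 6 of them the groups did not overlap, with 20 months higher. The complement genes C1s and C1r, whose products start the classical cascade, had 0.44 ± 0.11 and 0.35 ± 0.11. C1s read 73.2, 100.6, 137 and 117.2 and then 184, 140.8, 148.9 and 146.4, and C1r 130.5, 185.2, 148.9 and 139.5 and then 200.3, 213.9, 193.2 and 195.2. Serping1, the inhibitor of that step, had 0.34 ± 0.12, and Icam1, an adhesion molecule for white cells, read 22.2 to 23.5 and then 33.5 to 43.6 (0.35 ± 0.10, limma adjusted p = 0.236). Lcn2, lipocalin-2, an iron-carrier binding protein of inflamed tissue, read 21.9, 20.8, 19 and 17.5 at 16 months and 92.8, 38.2, 93.9 and 25.8 at 20 months (0.79 ± 0.18, limma adjusted p = 0.0893). All 4 arrays of 20 months were above the 16-month arrays, but by very different distances.

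The mitochondrial lists had negative medians without a single call. Of 48 genes of oxidative phosphorylation 4 had a positive log2 change, 0 were called by limma, 0 had a higher mean and 7 a lower mean at an unadjusted p below 0.05, and the median was -0.13. In 7 genes all 20-month arrays lay below all 16-month arrays. Ndufa5, a subunit of complex I, read 671, 663.2, 599.1 and 583.9 and then 439.5, 496.3, 441.7 and 560.7 (-0.36 ± 0.11, limma adjusted p = 0.281), and Ndufv2, another, 1005.1, 966.2, 810.2 and 793.3 and then 748.8, 780.9, 558 and 708 (-0.34 ± 0.14). In both genes the day 2 pair of 16 months was the brighter pair. The list median was -0.21 against the day 2 pair and -0.10 against the day 3 pair, -0.20 without replicate 4 of 20 months and -0.08 without replicate 1 of 20 months. It was -0.23 in the step from 12 to 16 months and 0.09 in WKY between 16 and 20 months. Some of these genes are very bright, such as Cox6a2 and Cox4i1 (means of 3556.0 and 3301.3 at 16 months). The 155 probe sets with a mean intensity of 1000 or more had a median of -0.12 (-0.22 against the day 2 pair, 0.03 against the day 3 pair). The list median ran from -0.21 to -0.07 over the alternative settings. The part of brightness in it was not tested.

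For fatty acid uptake and oxidation 45 genes were measured, of which 12 had a positive log2 change, 0 were called and 5 had a lower mean at an unadjusted p below 0.05 (median -0.08, the same to 2 decimals against either pair of 16-month arrays). Slc25a20, the carnitine carrier of the inner mitochondrial membrane, had -0.30 ± 0.11, Ech1, an auxiliary enzyme of beta oxidation, -0.28 ± 0.12, and the kinases Pdk2 and Pdk4, which inhibit pyruvate dehydrogenase, -0.26 ± 0.12 and -0.23 ± 0.10. Of 22 genes of the citrate cycle and pyruvate use 0 were called, 3 had a positive log2 change and 4 had a lower mean at an unadjusted p below 0.05 (median -0.14, with -0.08 against the day 2 pair and -0.11 against the day 3 pair), with Got1, an aspartate aminotransferase of the malate shuttle, at -0.23 ± 0.10. Glycolysis and glucose uptake had 3 higher and 2 lower of 29 at an unadjusted p below 0.05, 0 calls and a median of -0.01 (-0.06 and 0.01 against the day 2 and day 3 pairs).

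**Figure D4:**
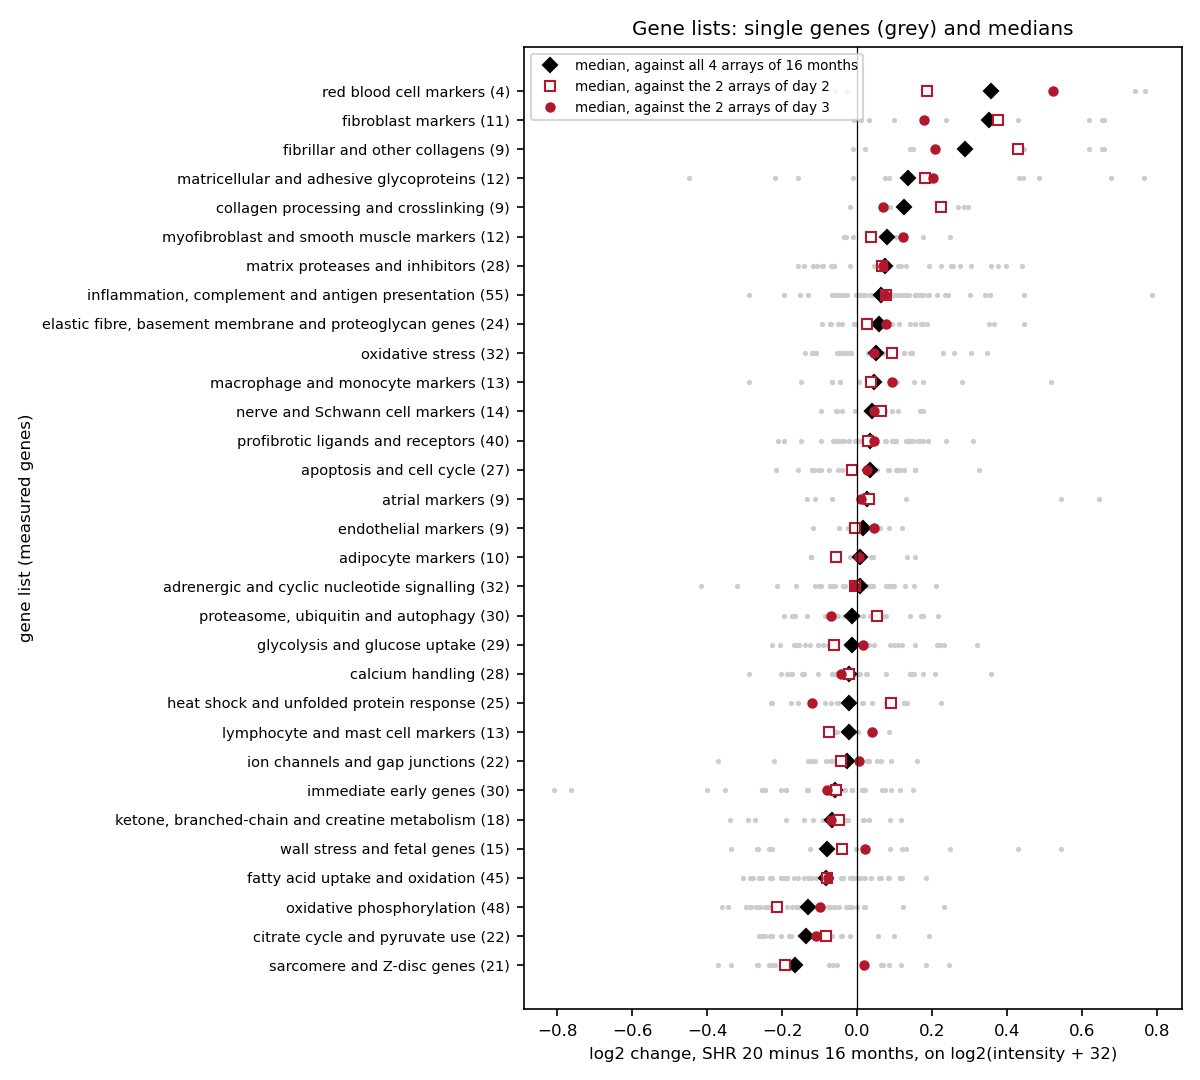
Log2 change between 16 and 20 months in SHR (x axis) for the 31 gene lists (y axis, with the number of measured genes). Grey points are genes, black diamonds the list medians against all 4 arrays of 16 months, and open squares and red circles the medians against the day 2 and the day 3 pair. Fibroblast markers and collagens lie to the right with every reference, oxidative phosphorylation to the left, and the sarcomere median crosses 0 between the pairs (-0.19 and 0.02).

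The median of the contractile list depended on the 16-month arrays it was set against. Of 21 sarcomere and Z-disc genes 0 were called, 1 had a higher and 5 a lower mean at an unadjusted p below 0.05, and the median was -0.17. The median was -0.19 against the day 2 pair and 0.02 against the day 3 pair, -0.05 without replicate 1 of 20 months, and -0.04 after quantile normalization of the arrays. Many of these genes are among the brightest on the array, and the brightest probe sets together had a median of the same sign. That set includes sarcomere genes such as Myh7 and Myh6, so it is not independent of the list, and a part of brightness was not tested. Of the 155 probe sets with a mean intensity of 1000 or more on the 8 arrays 38 had a positive log2 change, with a median of -0.12, and that median was -0.22 against the day 2 pair, 0.03 against the day 3 pair and -0.01 after quantile normalization. Myh7 and Myh6, the slow and fast cardiac myosin heavy chains, had -0.34 ± 0.14 and -0.26 ± 0.13. Myh7 read 5798.3, 4370.4, 3310.4 and 4200.1 and then 3012, 3429.8, 4008.4 and 3305.4, with overlap. Their probe sets are shared by a gene family and do not separate the isoforms with certainty. Atp2a2, the calcium pump of the sarcoplasmic reticulum, had -0.29 ± 0.14 on its brightest probe set and -0.13 to 0.07 on 3 others.

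The genes of wall stress and the fetal programme, known for their activity in overloaded ventricles, gave no common direction. Of 15 measured, 1 was called (Myl4), 2 had a higher and 4 a lower mean at an unadjusted p below 0.05, and the median was -0.08 (-0.04 against the day 2 pair, 0.02 against the day 3 pair and 0.00 without replicate 1 of 20 months). Nppa read 2799.1, 5242.7, 3800.5 and 2932 at 16 months and 3016.4, 3697.6, 4338.1 and 4875.4 at 20 months, and its other 3 probe sets gave -0.10 to 0.14. Nppb, the brain natriuretic peptide gene, had 0.12 ± 0.14 and Acta1, skeletal actin, -0.13 ± 0.11. For Nppa, Nppb and Acta1 the ages overlapped.

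Immediate early genes respond within minutes to stretch, hormones or handling. Of 30 measured, 0 were called by limma, 0 had a higher mean and 7 a lower mean at an unadjusted p below 0.05. The median was -0.06, with -0.06 against the day 2 pair and -0.08 against the day 3 pair. With 1 array left out it ran from -0.11 (without replicate 2 of 16 months) to -0.045 (without replicate 3 of 16 months). Egr1, a zinc finger transcription factor, read 102.6, 138.3, 206.5 and 152 at 16 months and 76.2, 52.5, 68.6 and 84.5 at 20 months, without overlap (-0.81 ± 0.24, limma adjusted p = 0.236), and its other 3 probe sets gave -0.24 to -0.68. The WKY arrays had a change of the same sign, from 201 ± 48.6 (SD, n = 4) to 76.0 ± 38.0 (SD, n = 3), a log2 difference of -1.14 ± 0.26, and the strains' steps differed by 0.33 ± 0.36. Nr4a1, an orphan nuclear receptor, read 73.3, 56.4, 220.9 and 59.9 and then 48.8, 50.1, 22.2 and 40.4 (-0.76 ± 0.28), with replicate 3 of 16 months far above the rest. Fos and Dusp1 had -0.40 ± 0.18 and -0.35 ± 0.14 beside -0.82 ± 0.19 and -0.35 ± 0.15 in WKY.

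Other genes also had non-overlapping groups and a mean intensity of at least 50 in the age group with the higher mean. Eef1a2, the muscle form of a translation elongation factor, read 812.8, 668.2, 623.5 and 768.7 and then 588.8, 551, 549.7 and 421.4 (-0.43 ± 0.11, limma adjusted p = 0.204). Prkaca, the catalytic subunit of protein kinase A, read 311.6, 381.6, 309.8 and 341.9 and then 222.9, 279.6, 252.3 and 220.9 (-0.42 ± 0.11, limma adjusted p = 0.217), and its second probe set gave -0.15. Among the 12 lowest were also 1 of 2 Ucp2 probe sets (an uncoupling protein, -0.39 ± 0.12), Churc1 (-0.37 ± 0.12), 1 of 3 Mapt probe sets (tau, -0.34 ± 0.14), 1 of 2 Rpl3l probe sets (a muscle ribosomal protein, -0.30 ± 0.10), the mitochondrial ribosomal protein gene Mrpl45 (-0.29 ± 0.11) and Vegfb (-0.29 ± 0.09). On the higher side stood Rcn3, a calcium-binding protein of the secretory pathway (0.43 ± 0.13, and 0.39 ± 0.14 on its second probe set), Sptan1, a spectrin (0.41 ± 0.125), and Eif4ebp1, a repressor of translation (0.41 ± 0.15). For each of these genes limma's adjusted p was above the threshold. The oxidative stress list had 3 of 32 genes with a higher and 0 with a lower mean at an unadjusted p below 0.05 and 0 calls, with Hmox1, haem oxygenase, at 0.30 ± 0.10 and Prdx2, an abundant red cell peroxidase, at 0.35 ± 0.12.

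RNA quality was read from control transcripts with probe sets at their 3' and 5' ends, where a higher 3' to 5' ratio means less complete transcripts. The GAPDH ratio was 1.34, 1.34, 1.24 and 1.23 at 16 months and 1.19, 1.17, 1.15 and 1.17 at 20 months, a difference of means of -0.12. The groups did not overlap, and the exact permutation p was 0.0286, the smallest that 4 against 4 arrays allow (0.086 adjusted over 3 ratios). The hexokinase ratio went from 2.94 ± 0.42 to 2.61 ± 0.22 (SD, n = 4 each, exact permutation p = 0.229) and that of beta-actin from 1.25 ± 0.14 to 1.18 ± 0.14 (SD, n = 4 each, exact permutation p = 0.486). Its part in the gene results was not tested.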

How the data were processed

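Left ventricular RNA was measured on 23 arrays, 8 of which are compared here. The values are probe set intensities on a linear scale, deposited by the authors; the summarising program is not given in the sources used here. From the values, each array had a trimmed mean of 50.08 to 50.11, so arrays had been scaled alike. The authors also deposited instrument records (unit other), used only for hybridization day and fluidics module. Of 8799 probe sets, 59 were controls; the platform annotation gave 7006 others 1 symbol, 308 several and 1426 none, and 6985 matched the RefSeq gene table by Entrez identifier. All 23 array columns were mapped to samples.

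Here 32 was added and log2 taken. Probe sets were kept where 3 or more arrays read above their own 30th percentile (7280, of which 5920 had 1 symbol). limma 3.58.1 in R 4.3.3 (lmFit, eBayes with a trend) fitted 6 groups over 23 arrays, with two-sided Benjamini-Hochberg adjusted p-values. Ratios of control transcripts were compared by exact permutation. The number of arrays limits the precision, and detection calls were not used. Alternatives changed the constant, normalization, filter, arrays fitted, trend, day block, day reference and replicates; the module block was chosen after seeing the data. Replicate numbers did not pair arrays (correlations of same-numbered deviations from -0.337 to -0.0104).

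Genes named are, by rule, those called, the 12 highest and 12 lowest changes with an unadjusted p below 0.05, no overlap and a mean of at least 50 in the higher group, up to 2 genes of smallest p per list, and a fixed set of cardiac and matrix genes. The text names part of the 84 genes taken, and 19 others in the report were chosen after their values were seen. So were Pdgfra, Ddr2, Dcn, Tcf21, Des and Lpl. The members, the 31 lists (654 of 944 genes measured) and the tests were chosen with earlier results of these data known. The fit was tested on simulated data.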

Additional observations from a re-analysis of the deposited data

Results flagged for a closer look

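In 6 of 158 groups of 4 SHR arrays, counting each named gene and each control transcript ratio at each age, a single array lay apart from the other 3 by more than Dixon's 95% critical value (the gap to the nearest array divided by the range, on the log2 scale). Chance flags about 1 in 20 groups. At 16 months, replicate 1 was lowest for Col5a1 (36.4 against 66.4 to 72.0, ratio 0.868) and for Serpine2 (15.7 against 40 to 44.6, ratio 0.869), and replicate 3 was highest for Nr4a1 (220.9 against 56.4 to 73.3, ratio 0.834). At 20 months, replicate 1 was highest for Lum (108.1 against 73.4 to 78.5, ratio 0.834) and lowest for Prdx2 (525.1 against 675.1 to 696.5, ratio 0.889), and replicate 4 was highest for Lyz2 (752.7 against 361.0 to 405.1, ratio 0.846).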

How the results depend on the processing

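The number of arrays limits the precision of these results. The count of called probe sets between 16 and 20 months, 6 in the analysis reported, was 0 with a constant of 1 added (580 at an unadjusted p below 0.05), 3 with no filter on dim probe sets, 0 with only the 8 arrays compared (445) or only the 12 SHR arrays (520), 3 with hybridization day as a random block, 60 against the day 2 pair of 16-month arrays and 11 against the day 3 pair. The other 8 whole-table settings gave 4 to 9. Counted over the lists it was 6, and 0, 3, 0, 0, 3 and 16 under the same settings up to the day 2 pair. With the replicate block both counts were 0 (387 probe sets at an unadjusted p below 0.05), though the numbers do not pair the arrays. Leaving out 1 array at a time gave 3 to 13 calls over all probe sets and 3 to 9 over the lists. The difference from WKY, called for 0 probe sets, gave 28 against the day 2 pair, 2 against the day 3 pair and 0 to 3 with 1 array left out. The difference from the step between 12 and 16 months, called for 0, gave 83 and 7 against these pairs, 1 among probe sets with a mean of at least 50, and 0 to 6 with 1 array left out. The GAPDH ratio difference ran from -0.137 to -0.0992 with 1 array left out, that of hexokinase from -0.464 to -0.135 and that of beta-actin from -0.132 to -0.0191. Alas2 turned to 0.118 and Slc4a1 to 0.052 against the day 3 pair, and with 1 array left out they ran from -0.105 to 0.082 (the highest without replicate 2 of 16 months) and from -0.103 to 0.014 (the highest without replicate 1 of 16 months). None of the other genes among the 76 run under these settings changed sign, and 19 of 31 list medians kept theirs under every setting. Kctd13, Txnip, Pdgfra, Ddr2, Dcn, Tcf21, Des and Lpl were not among the 76. The cause of these changes was not tested.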

Other observations

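Some of the largest differences between the ages belonged to probe sets with no single gene symbol in the annotation or with wide spread within an age. The probe set rc_AA859372_s_at read 331.4, 146.1, 343.3 and 303 at 16 months and 115.7, 3562.8, 1303.8 and 450.5 at 20 months, so replicate 2 of 20 months was far above the rest (log2 change 1.35 ± 0.74). A probe set for Kctd13 read 327.6 to 1857.5 and then 532.2 to 3474.4 (0.93 ± 0.77). The probe set U42719_at read 11, 50.2, 103.9 and 55.6 and then 96.2, 136.8, 151.6 and 131.8 (0.99 ± 0.26, limma adjusted p = 0.193), with replicate 1 of 16 months again the lowest. M60921_g_at read 78.9, 78.6, 154.1 and 123 and then 40.1, 65.2, 39.3 and 55.9, without overlap (-0.75 ± 0.16, limma adjusted p = 0.0533). Txnip, an inhibitor of thioredoxin and of glucose uptake, read 288.1, 157, 368 and 244.4 and then 128.9, 152.7, 126.9 and 166.8 (-0.71 ± 0.20, limma adjusted p = 0.217), with overlap. Kctd13 and Txnip were chosen after their values were seen.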
